A study of Mus musculus with 8 samples.

Results

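The BBSome is the coat-like complex that carries membrane proteins into and out of the primary cilium, and the genes described here encode its 8 subunits (Bbs1, Bbs2, Bbs4, Bbs5, Bbs7, Ttc8, Bbs9 and Bbip1) and 2 proteins that govern where it goes (Arl6 and Lztfl1). The rule that names them uses no measured value, but they were chosen with earlier results of these data known. All 10 were found among the 31053 genes of the count tables. Ttc8 is the gene also called Bbs8, which the study deleted. Retinal pigment epithelium (RPE), the pigmented cell layer behind the photoreceptors, was isolated on postnatal day 29 (P29) from 4 Bbs8-/- mice and from 4 wild-type littermates (Bbs8+/+). All mice were on the C57/Bl6 strain and were untreated, their sex was not determined, and the deletion was not restricted to the RPE, so that the photoreceptors lacked the gene too. The 8 libraries, made from 30 ng of RNA with a kit that reads the end of each polyadenylated transcript, held 2389835 to 3093428 counts on genes. Levels are given in CPM, counts scaled to the size of the library times a TMM factor of 0.955 to 1.05 per library. The 12889 genes that reached 1 CPM by library size alone in 4 or more libraries entered the test. The sample size n is 4 libraries per genotype throughout.

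The RNA held markers of the RPE and of other cells. Rpe65, the retinoid isomerase that defines the RPE, was at 4640 ± 211 CPM (SD) in Bbs8+/+ and 3916 ± 38.1 CPM in Bbs8-/- libraries, whereas Best1, a chloride channel of the same cells, was near 1 CPM in both. Rod markers summed to 55467 to 59223 CPM in Bbs8+/+ and to 22850 to 23556 CPM in Bbs8-/- libraries, and 12 of the 13 fell. The rod transducin gene Gnat1 was at 8608 ± 387 CPM against 3104 ± 167 CPM. Lens markers, with the crystallin gene Cryaa at 592 ± 29.8 against 80.3 ± 18.9 CPM, fell for 13 of 13 genes, and erythrocyte markers for 5 of 6. Of the 9 cone markers 5 rose, with a summed level of 172.6 to 223.2 against 298.9 to 341.0 CPM, although the cone arrestin gene Arr3, at 24.0 ± 3.64 and 21.9 ± 2.79 CPM, did not pass the test. Among the 12 RPE markers 2 rose and 4 fell, and their sum went from between 39549 and 40572 to between 47560 and 51347 CPM. Most of this sum was transthyretin (Ttr), which rose from 20932 ± 540 to 31748 ± 1397 CPM. The mean of the sum went from 40223 to 49570 CPM, a smaller step than that of Ttr. Without Ttr the RPE markers together were therefore lower in Bbs8-/- libraries. Every cell type with a cilium, photoreceptors included, uses the BBSome. In such bulk samples fewer cells of a type and less RNA per cell cannot be told apart, and the part of these markers in the results below was not tested.

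In the BBSome, BBS2, BBS7 and BBS9 form a core that is folded with the help of the chaperonin-like proteins MKKS, BBS10 and BBS12 together with the CCT chaperonin, and the remaining subunits are added to it. The GTPase ARL6 draws the finished complex to membranes, LZTFL1 holds it back from the cilium, and the complex then travels on intraflagellar transport trains with receptors as cargo. Loss of a subunit in humans causes Bardet-Biedl syndrome, which includes retinal dystrophy. Many genes of cilia carry in their promoters an X-box, the pair of inverted half-sites bound by RFX transcription factors.

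Promoters of 4 members are shown because they differ in this motif. They span 250 bases before to 50 bases after the start of the transcript in RefSeq's annotation of GRCm38.p6, where all 10 members had at least 1 such window, and are written on the strand of the gene. Capitals mark the half-site GTTGCC on either strand and the whole X-box, the latter searched by its degenerate consensus of 2 inverted half-sites with a spacer of 0 to 3 bases. That consensus was GTNRCC, the spacer and RGYAAC, read on either strand. N is any base, R is A or G, and Y is C or T. Either arm of an X-box may therefore spell GTTGCC or not.
Bbs1, chr19:4906578-4906877, reverse strand: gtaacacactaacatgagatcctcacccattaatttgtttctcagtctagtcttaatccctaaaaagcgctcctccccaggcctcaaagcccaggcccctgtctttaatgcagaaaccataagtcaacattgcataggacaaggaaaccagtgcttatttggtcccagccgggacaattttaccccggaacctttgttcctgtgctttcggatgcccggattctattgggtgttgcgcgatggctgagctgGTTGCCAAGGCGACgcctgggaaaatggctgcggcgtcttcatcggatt
Lztfl1, chr9:123717576-123717875, reverse strand: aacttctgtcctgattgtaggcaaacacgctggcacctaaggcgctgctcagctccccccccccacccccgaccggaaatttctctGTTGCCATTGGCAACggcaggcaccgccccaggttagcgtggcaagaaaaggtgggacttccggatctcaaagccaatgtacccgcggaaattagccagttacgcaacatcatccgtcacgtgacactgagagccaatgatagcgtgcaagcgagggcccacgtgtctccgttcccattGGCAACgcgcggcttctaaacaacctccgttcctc
Bbs7, chr3:36613340-36613639, reverse strand: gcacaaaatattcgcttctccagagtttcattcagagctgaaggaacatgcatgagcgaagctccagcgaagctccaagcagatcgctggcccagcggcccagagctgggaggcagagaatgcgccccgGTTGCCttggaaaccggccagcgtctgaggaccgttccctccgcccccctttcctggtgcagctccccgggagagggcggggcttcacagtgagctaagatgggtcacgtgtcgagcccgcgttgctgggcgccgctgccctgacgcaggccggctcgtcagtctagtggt
Bbs4, chr9:59353459-59353758, reverse strand: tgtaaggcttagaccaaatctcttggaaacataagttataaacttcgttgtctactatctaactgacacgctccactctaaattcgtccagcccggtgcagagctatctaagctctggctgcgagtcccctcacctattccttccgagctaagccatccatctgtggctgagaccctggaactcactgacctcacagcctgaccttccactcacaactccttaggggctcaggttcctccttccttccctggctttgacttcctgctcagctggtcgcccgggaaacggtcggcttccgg
The window of Bbs1 held an X-box from base 1 to base 14 counted from the start, GTTGCCAAGGCGAC. That of Lztfl1 held one 164 to 150 bases before the start, GTTGCCATTGGCAAC, and a further half-site behind the start. Bbs7 and Bbs5 had a half-site without an X-box of the consensus given above, and looser forms of the X-box were not searched. Bbs4 had neither in this window, nor had the other 5 members. A half-site was thus found for 4 of the 10 members and in 12.5% of the 32851 promoter windows of all genes, and an X-box for 2 of the 10 and in 1.53% of all windows.

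The deleted gene was low in every Bbs8-/- library. Ttc8 (GRCm38 chromosome 12, bases 98920574 to 98983238, forward strand) was at 35.5, 53.0, 58.9 and 43.1 CPM in the Bbs8+/+ libraries and at 6.16, 1.79, 5.60 and 5.24 CPM in the Bbs8-/- libraries. All 4 Bbs8-/- libraries lay below every Bbs8+/+ library, so the counts followed the labels. The remaining level was 9.87% of wild type, and the log2 fold change was -3.34 (SE 0.294, 95% interval -3.94 to -2.74, edgeR adjusted p = 2.47e-11). Which part of the gene is deleted is not given in the sources used here, and reads at the 3′ end need not report on that part.

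Of the other 9 members 1 fell, none rose and 8 did not pass the test. By edgeR's quasi-likelihood test 5.46% of all genes tested rose and 6.80% fell (12.3% in either direction), so that 1 in 9 is close to the background and is no result about the members as a set. At an unadjusted p under 0.05 no member rose and 3 fell, Ttc8 included. The share of all tested genes under that p is not given here, so this count is no result about the members either. With the libraries of both genotypes set side by side, 2 members, Ttc8 and Bbs4, were lower in every Bbs8-/- library, and 8 overlapped. Among all genes tested 8.62% were lower and 7.42% higher without overlap. The median log2 fold change of the 9 members was -0.34, beside 0.02 over all tested genes. It was below 0 for 7 of the 9 and for 48.2% of all genes, but the signs depended on the scaling: 6 of 9 were below 0 when libraries were scaled by their size alone and 9 of 9 when they were scaled to the RPE markers.

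**Figure D1:**
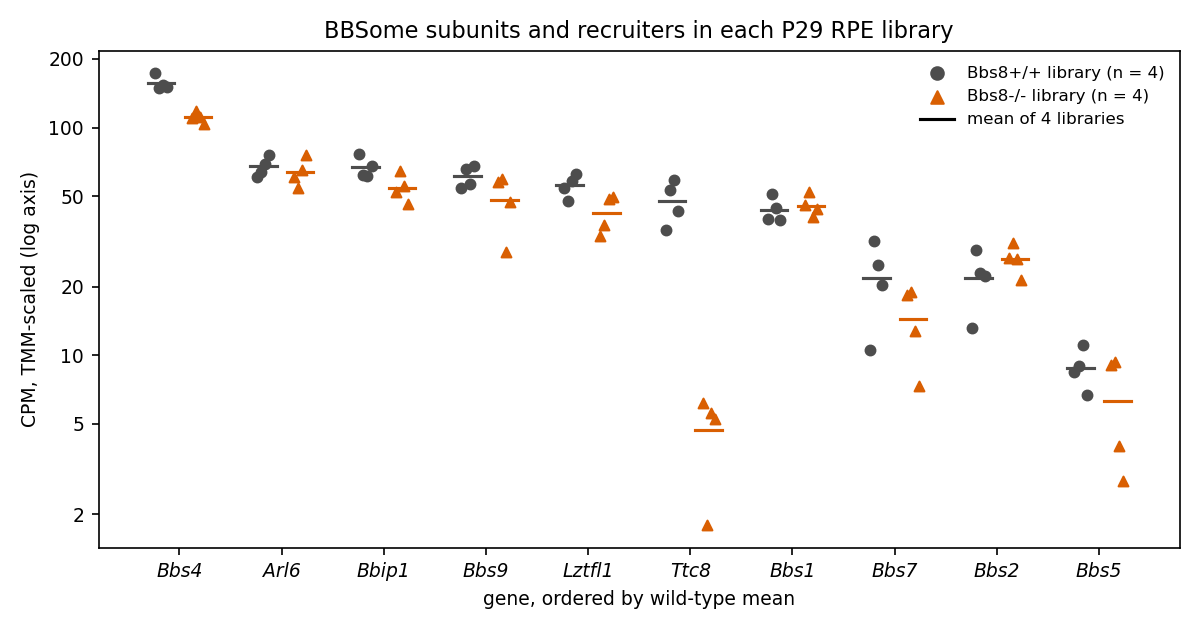
Level of each member in each library, in CPM scaled by TMM on a log axis, with genes ordered by their wild-type mean; circles are Bbs8+/+ and triangles Bbs8-/- libraries, and the lines are means of 4. The triangles of Ttc8 (1.79 to 6.16 CPM) and of Bbs4 (104 to 119 CPM) lie below all of their circles, and those of the other 8 genes overlap with the circles.

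Bbs4 was the most abundant member and the one that fell beside Ttc8. It encodes a subunit built of tetratricopeptide repeats, as Ttc8 does, and lies on chromosome 9 between bases 59321990 and 59353508, reverse strand. Its level was 173, 149, 154 and 150 CPM in Bbs8+/+ and 110, 119, 111 and 104 CPM in Bbs8-/- libraries. The lowest Bbs8+/+ library stood well above the highest Bbs8-/- library. The means were 157 ± 11.2 and 111 ± 5.93 CPM, a log2 fold change of -0.50 (SE 0.112, 95% interval -0.72 to -0.27, edgeR adjusted p = 0.0017). This leaves 70.9% of the wild-type level, with an interval of 60.5% to 83.0%. Between 269 and 511 counts per library lay behind these values, and the spread among Bbs8+/+ libraries (a coefficient of variation of 7.14%) was not far above that of counting alone (4.90%). An exact permutation test of the CPM values gave p = 0.0286, which is the smallest that 4 libraries against 4 allow. Exons of Bbs4 share 194 bases with Adpgk, a glucokinase gene on the other strand, and whether counting used the strand is not given in the sources used here. Adpgk was at 2.80 ± 1.27 and 5.93 ± 3.37 CPM and did not pass the test.

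The core subunits Bbs2, Bbs7 and Bbs9 did not pass the test, and their libraries overlapped. Bbs2 was at 13.2, 29.1, 22.9 and 22.3 CPM in Bbs8+/+ and at 26.7, 31.2, 26.4 and 21.3 CPM in Bbs8-/- libraries, with a log2 fold change of 0.27 (95% interval -0.23 to 0.78). Bbs7 was at 10.5, 31.7, 24.9 and 20.4 CPM and at 18.5, 19.0, 12.8 and 7.34 CPM, with -0.60 (95% interval -1.24 to 0.04, edgeR adjusted p = 0.253). The lowest Bbs8+/+ library of both genes was replicate 1. This library stood somewhat apart beyond these genes. Over genes of at least 10 CPM it correlated at 0.947 to 0.955 with the other Bbs8+/+ libraries. Those correlated at 0.968 to 0.969 among themselves. Bbs9 was at 54.2, 66.0, 56.4 and 67.6 CPM and at 57.5, 59.5, 28.4 and 47.2 CPM, with -0.34 (95% interval -0.71 to 0.03). Replicate 3 of Bbs8-/- stood below the others for Bbs9. Bbs7 spread far more between libraries than its counts account for, with a coefficient of variation of 40.6% among Bbs8+/+ libraries where counting alone gives 14.0%, and its interval admits both a loss to 42.3% of the wild-type level and a level of 103%.

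Bbs1, the subunit that binds ARL6, did not pass the test and had libraries that overlapped. Its values were 39.6, 51.1, 44.2 and 39.4 CPM in Bbs8+/+ and 45.6, 52.0, 40.4 and 43.7 CPM in Bbs8-/- libraries. The log2 fold change was 0.06, with a 95% interval from -0.30 to 0.42, that is from 81.3% to 134% of wild type. A change of the size of that of Bbs4, -0.50, lies outside this interval. Bbip1, the smallest subunit, was at 76.2, 61.9, 61.3 and 67.6 CPM and at 52.1, 64.1, 55.6 and 46.1 CPM, with -0.29 (95% interval -0.61 to 0.02, edgeR adjusted p = 0.263). Only replicate 2 of Bbs8-/- reached into the wild-type range for Bbip1. Exons of Bbip1 share 97 bases with Shoc2 on the other strand, a gene of the Ras pathway that fell from 133 ± 23.6 to 94.3 ± 9.19 CPM (log2 fold change -0.49, edgeR adjusted p = 0.00768). Bbs5, which binds phosphoinositides, was the least abundant member in wild type, at 8.46, 8.95, 11.0 and 6.69 CPM in Bbs8+/+ and 9.03, 9.32, 4.00 and 2.80 CPM in Bbs8-/- libraries. With 8 to 27 counts a library, its log2 fold change was -0.48 with an interval from -1.38 to 0.42, that is from 38.5% to 133% of wild type. Its coefficient of variation among Bbs8-/- libraries was 53.7%, where counting alone gives 27.8%.

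**Figure D2:**
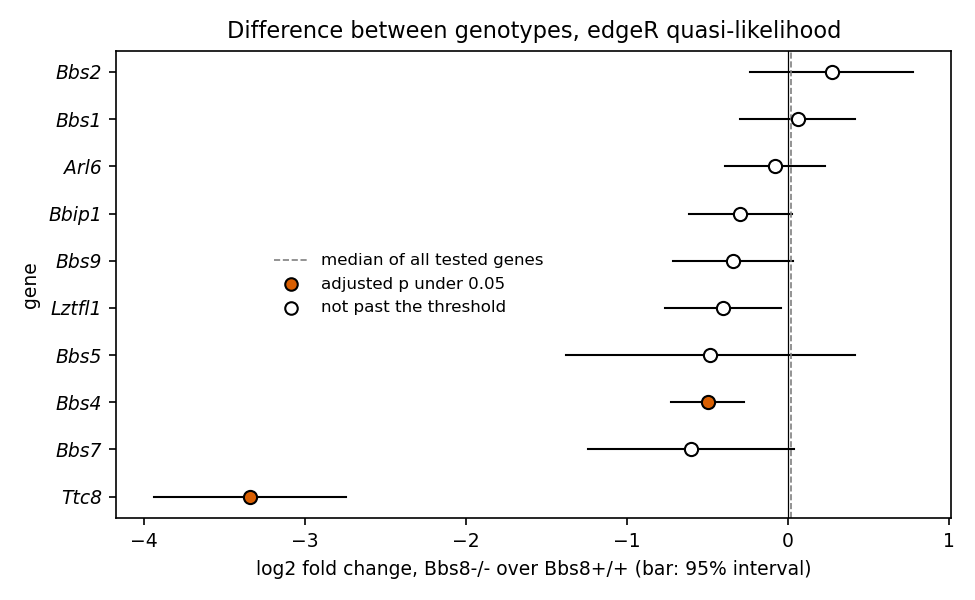
Log2 fold change of each member, Bbs8-/- over Bbs8+/+, from edgeR's quasi-likelihood fit with its 95% interval as a bar; filled points passed an adjusted p of 0.05 and the dashed line is the median of all tested genes (0.02). The intervals of Ttc8 and Bbs4 and, narrowly, that of Lztfl1 (-0.76 to -0.04) lie below 0, and that of Bbs5 (-1.38 to 0.42) is the widest.

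Arl6 and Lztfl1, which act on the complex from outside, did not pass the test either. Arl6 was at 60.9, 63.8, 69.5 and 75.8 CPM in Bbs8+/+ and at 60.4, 54.5, 65.2 and 75.5 CPM in Bbs8-/- libraries, with a log2 fold change of -0.08 (95% interval -0.39 to 0.23, edgeR adjusted p = 0.826). The sign of this small difference turned under 2 other scalings. Lztfl1 was at 54.5, 47.7, 58.5 and 62.4 CPM and at 33.3, 37.3, 48.4 and 49.6 CPM, with -0.40 (SE 0.177, 95% interval -0.76 to -0.04, edgeR adjusted p = 0.149). Replicates 3 and 4 of Bbs8-/- lay above the lowest Bbs8+/+ library, replicate 2, while the other 2 lay below all. Lztfl1 overlaps exons of the antisense gene Gm17200, which had 0 counts in every library.

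The subunits were also summed within each library. Reads of this kit come from transcript ends, so a long transcript gives no more of them than a short one and no division by length was made. The 7 subunits without Ttc8 summed to 375, 398, 374 and 375 CPM in Bbs8+/+ and to 320, 354, 278 and 273 CPM in Bbs8-/- libraries. All Bbs8-/- sums were below all Bbs8+/+ sums, with means of 380 ± 11.4 and 306 ± 38.0 CPM, or 80.5% of wild type. This separation depended on the scaling: by library size alone the sums were 358 to 389 and 285 to 363 CPM and overlapped, as they did when scaled to the RPE markers without Ttr, and they stood apart when Ttr was included. Bbs4 alone made up 41.2% of this sum in Bbs8+/+ and 36.5% in Bbs8-/- libraries. Without Bbs4 the remaining 6 subunits summed to 224 ± 19.2 and 195 ± 33.0 CPM, or 87.1% of wild type, and the libraries overlapped. As shares of the 7-subunit sum, Bbs1 stood at 10.5% to 12.9% in Bbs8+/+ and 14.2% to 16.0% in Bbs8-/- libraries, and Bbs2 at 3.52% to 7.32% and 7.82% to 9.48%. These are shares of a sum that was itself lower, and the libraries overlapped in the shares of the other 5 subunits.

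**Figure D3:**
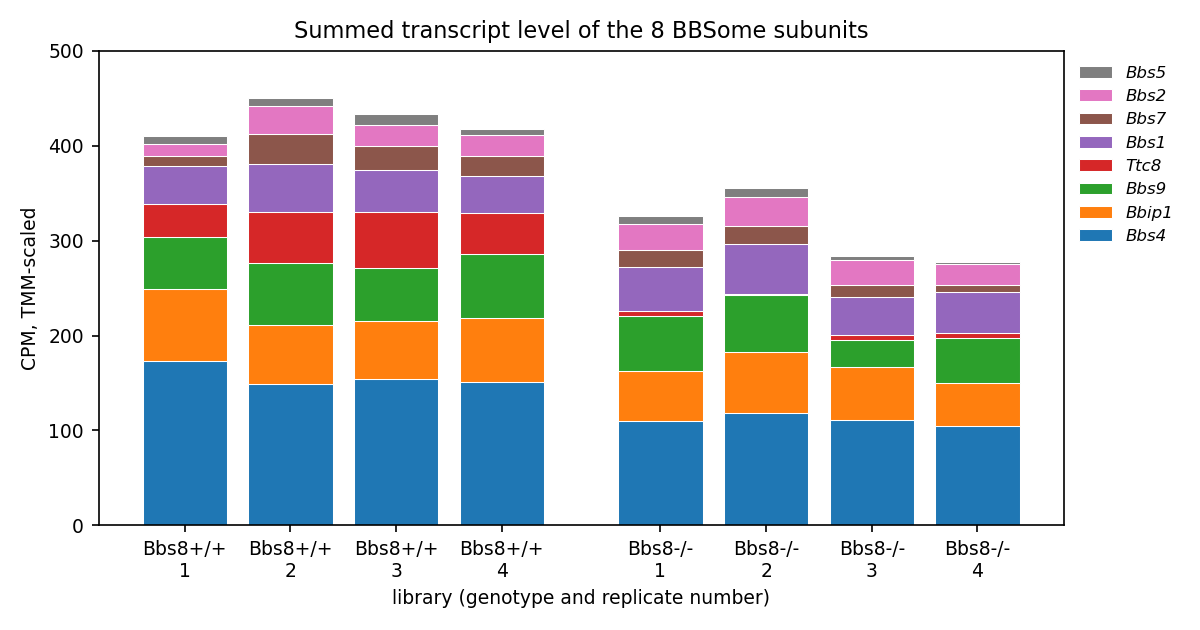
Summed level of the 8 BBSome subunits in each library, in CPM scaled by TMM from 0, each bar 1 library and each colour 1 subunit. The bars of the 4 Bbs8+/+ libraries reach 411 to 451 CPM and those of the 4 Bbs8-/- libraries 278 to 355 CPM, with Bbs4 as the largest segment in all.

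The order of the members within wild type fell into 4 steps. Bbs4 was at the top, and its lowest library was above the highest of Arl6 at 67.5 ± 6.58 CPM. Arl6, Bbip1 (66.8 CPM), Bbs9 (61.1 CPM), Lztfl1 (55.8 CPM), Ttc8 (47.6 CPM) and Bbs1 (43.6 CPM) followed, and each neighbour in this order overlapped with the next. Bbs7 and Bbs2, both at 21.9 CPM, formed the next step, and Bbs5 at 8.79 ± 1.79 CPM the last, although the lowest library of Bbs7, at 10.5 CPM, was below the highest of Bbs5. In Bbs8-/- libraries Ttc8 moved to the last place, Bbs1 passed Lztfl1 and Bbs2 passed Bbs7.

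The pathway around the BBSome was read from 47 further genes, of which 45 were in the count tables and 40 were tested. In this group 1 gene rose (2.5%) and 3 fell (7.5%), again close to the shares of all genes, and the median log2 fold change was -0.14. The 3 that fell belong to different steps of the pathway, which are the folding of the complex, the gate of the cilium and the ciliary membrane. Some genes that did not pass the test are named below for libraries without overlap. Among all genes tested 8.62% were lower and 7.42% higher in this way, so such a separation alone is common.

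Folding is served by the BBS chaperonins and the CCT ring. None of the 3 chaperonin-like genes passed the test, with log2 fold changes of 0.23 for Mkks, -0.20 for Bbs10 and 0.91 for Bbs12, the last at only 4 to 34 counts. Of the 7 CCT genes that were tested 1, Cct5, fell. The log2 fold change was below 0 for all 7, beside 48.2% of all genes, but for 6 of 7 with libraries scaled by size and for 4 of 7 when scaled to the RPE markers without Ttr. Cct5 was at 104, 120, 102 and 110 CPM in Bbs8+/+ and at 78.8, 61.3, 65.6 and 74.8 CPM in Bbs8-/- libraries. Its libraries did not overlap, and the log2 fold change was -0.64 (SE 0.133, edgeR adjusted p = 6.18e-04). The other 6 CCT genes lay between -0.31 and -0.04, and at 228 ± 14.0 and 222 ± 18.8 CPM Cct7 was the most abundant of them. Cct3 did not pass the test, but its libraries did not overlap either, at 102 to 107 CPM in Bbs8+/+ and 81.7 to 93.9 CPM in Bbs8-/-.

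Other genes of Bardet-Biedl syndrome and linked ciliopathies numbered 9 tested, of which Cep290 fell. CEP290 is a protein of the transition zone, the gate at the base of the cilium. It was read at 285, 276, 242 and 276 CPM in Bbs8+/+ and at 183, 202, 189 and 159 CPM in Bbs8-/- libraries, so that the genotypes stood apart. The log2 fold change was -0.56 (SE 0.0995, edgeR adjusted p = 7.14e-05). The intraflagellar transport genes of this list, Ift27, Ift74 and Ift172, were between -0.28 and -0.16 and did not pass the test. Trim32, at 0.55, did not pass it either.

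Among 10 genes for partners in traffic Arl13b fell, which encodes a GTPase of the ciliary membrane related to ARL6. Its values were 133, 94.7, 85.4 and 101 CPM in Bbs8+/+ and 55.8, 68.1, 49.6 and 67.8 CPM in Bbs8-/- libraries. Replicate 1 of Bbs8+/+ stood above the others, and the genotypes did not overlap. The log2 fold change was -0.78 (SE 0.151, edgeR adjusted p = 2.40e-04). For Rab3ip, which activates RAB8A, it was 0.05 and for Rab8a itself -0.17. The centriolar satellite gene Pcm1 had -0.30 (edgeR adjusted p = 0.111) and Rabl2, a GTPase of ciliary transport, -0.55 (edgeR adjusted p = 0.234). Although not called, Rabl2 had libraries that did not overlap, at 17.5 to 23.7 CPM in Bbs8+/+ and 11.9 to 16.1 CPM in Bbs8-/-.

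Of the 9 receptors listed as cargo of the BBSome 4 were too low to be tested. Sstr3, Npy2r and Npy5r had 0 counts in all 8, which at 3 counts allows up to 0.970 to 1.26 CPM a library for counting error alone, and Mchr1 had at most 3 counts. None of the 5 that were tested passed. The Hedgehog receptor Ptch1 was at 47.2 ± 2.31 and 54.3 ± 20.4 CPM, with replicate 1 of Bbs8-/- at 81.3 CPM, and Smo, its partner in the pathway, at 6.77 ± 1.65 and 10.1 ± 4.58 CPM.

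Of the 6 transcription factor genes of cilia that were tested Rfx2 rose, 1 of the factors that bind the X-box. Rfx2 had 6, 0, 6 and 7 counts in Bbs8+/+ and 23, 37, 15 and 41 counts in Bbs8-/- libraries. Each Bbs8-/- library exceeded all of wild type, at 10.8 ± 3.80 against 1.77 ± 1.21 CPM. The log2 fold change was 2.58 (SE 0.571, 95% interval 1.42 to 3.74, edgeR adjusted p = 0.00132). More abundant factors did not pass the test, with 0.60 for Rfx3, 0.59 for Rfx7 and -0.61 for Rfx1 at edgeR adjusted p of 0.193, 0.116 and 0.138. The libraries of Rfx7 did not overlap all the same, at 15.5 to 22.8 CPM in Bbs8+/+ and 23.4 to 33.3 CPM in Bbs8-/-. Foxj1, the factor of motile cilia, was at 4.23 ± 2.79 and 4.22 ± 0.773 CPM. Of the 2 members with an X-box of the consensus searched above, Bbs1 had a log2 fold change of 0.06 and Lztfl1 of -0.40, and neither passed the test.

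**Figure D4:**
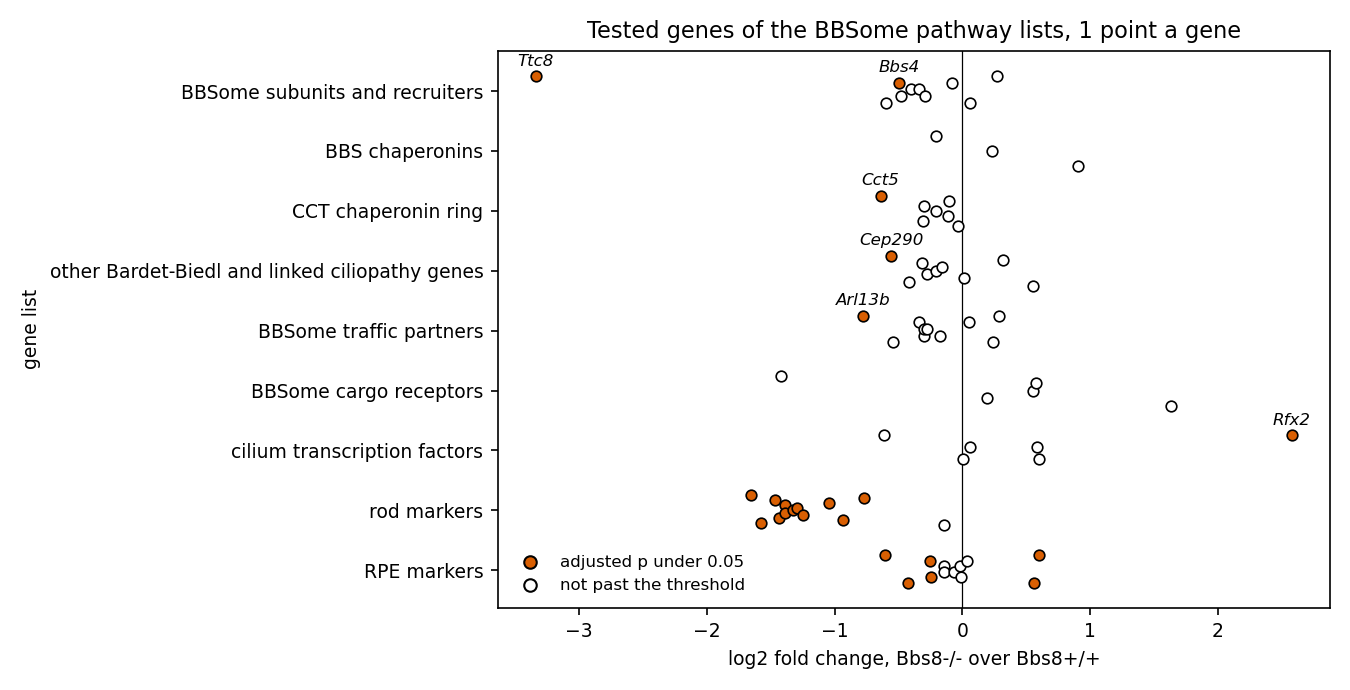
Log2 fold change, Bbs8-/- over Bbs8+/+, of every tested gene in the lists around the BBSome and, for reference, in the rod and RPE marker lists; 1 point is 1 gene, and filled points passed an adjusted p of 0.05. Apart from Ttc8, Bbs4, Cct5, Cep290, Arl13b and Rfx2 the pathway genes are open points, while 12 of the 13 rod markers are filled and below 0.

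Genes close to Ttc8 on chromosome 12 were examined as well. Within 1 Mb of its start lay 22 other genes of the count tables, and 7 of them were tested. Of these none rose and 2 fell, where 6.80% of all tested genes fell. Eml5, a microtubule-associated protein gene that starts 19.1 kb before Ttc8 on the other strand, was at 67.7, 49.2, 36.8 and 50.5 CPM in Bbs8+/+ and at 15.2, 24.7, 31.6 and 17.1 CPM in Bbs8-/- libraries. The closest libraries were 36.8 and 31.6 CPM, and the log2 fold change was -1.21 (SE 0.226, edgeR adjusted p = 1.53e-04). Ptpn21, a tyrosine phosphatase gene 183 kb away, went from 79.9 ± 12.5 to 41.2 ± 3.31 CPM, with -0.96 (SE 0.160, edgeR adjusted p = 2.66e-05). Zc3h14, which lies between them in distance at 174 kb, was at 32.1 ± 3.69 and 41.6 ± 8.08 CPM and did not pass the test.

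The genes whose log2 CPM followed the 7-subunit sum most closely over the 8 libraries were ranked among 8422 genes of at least 10 CPM. They were Rnf150, a RING finger gene (Pearson r of 0.965), Sgtb, a co-chaperone gene (0.965), the transcription factor genes Etv5 (0.961) and Mef2d (0.956), and the surface protein gene Cd24a (0.955). The 8 libraries hold both genotypes, so r includes the difference between them, and in all 5 genes the Bbs8-/- libraries were lower without overlap. The sum by which they were chosen was itself lower without overlap, so this separation follows largely from the choice. Sgtb was at 91.7 ± 7.75 against 36.1 ± 14.5 CPM and Cd24a at 19.6 ± 1.04 against 7.50 ± 2.37 CPM. For Rnf150 the values were 60.9 ± 2.99 against 42.7 ± 8.86 CPM.

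The scaling of the libraries changed the calls of 4 members, and Bbs4 was called under each. Under TMM and DESeq2's size factors the log2 fold changes differed little. When libraries were scaled by the summed counts of the RPE markers, the median of all genes moved by -0.30, and Bbs7 (-0.90), Lztfl1 (-0.70), Bbs9 (-0.64) and Bbip1 (-0.59) passed the test in addition. Leaving Ttr, the largest RPE marker, out of the sum moved the median by 0.11 in the other direction, and Ttc8 and Bbs4 were then the 2 members called.

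**Figure D5:**
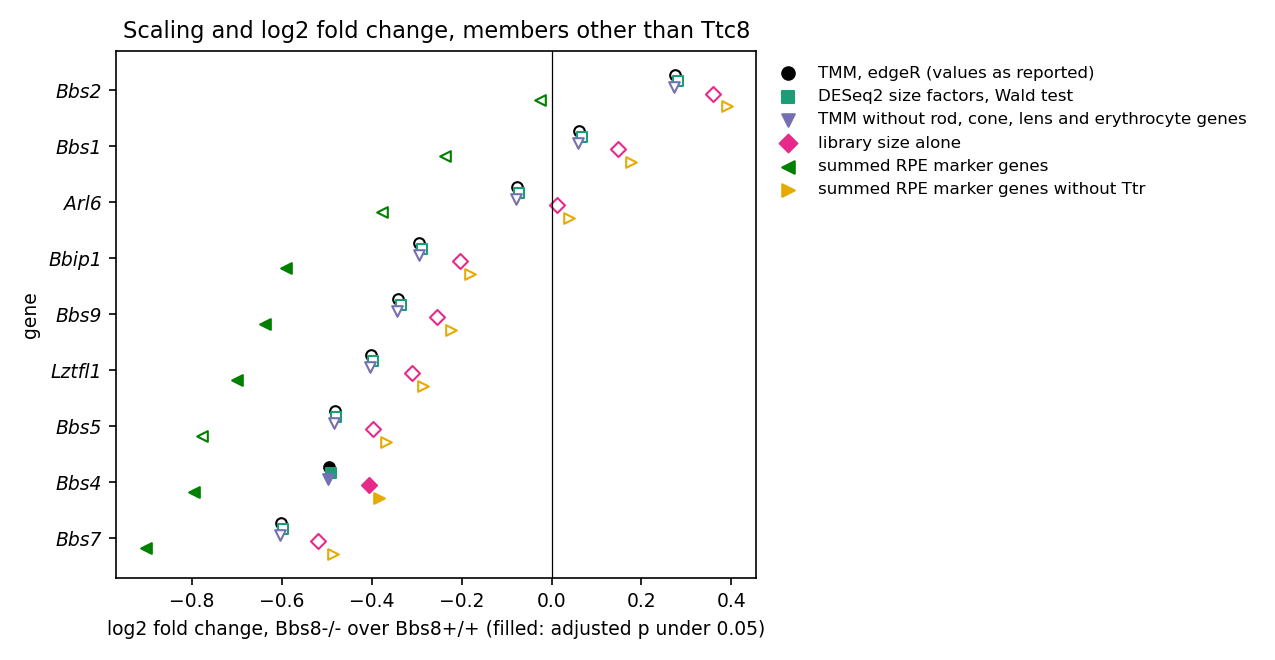
Log2 fold change, Bbs8-/- over Bbs8+/+, of the 9 members other than Ttc8 under 6 ways of scaling or testing, 1 symbol each; filled symbols passed an adjusted p of 0.05. Bbs4 is filled in all 6, whereas Bbs7, Lztfl1, Bbs9 and Bbip1 are filled only where libraries were scaled to the summed RPE markers with Ttr.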

How the data were processed

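RNA of isolated RPE was sequenced by the authors as 100 bp single-end QuantSeq 3′ reads from 4 Bbs8+/+ and 4 Bbs8-/- mice. The authors trimmed the reads, aligned them by STAR to the mm10 genome (Ensembl release 93) and deposited counts of uniquely mapped reads per gene from htseq-count, without normalization. Between 25.8% and 30.9% of these reads fell on no gene and were left out. Groups were taken from the labels, which describe biological replicates. Gene names and coordinates came from GENCODE M21 (GRCm38) and matched 30934 of the 31053 identifiers. Cct6a and Cfap418 were not analysed here, and single values of some listed genes are not reported here.

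The tests were run by edgeR 4.0.16 under R 4.3.3 (TMM, quasi-likelihood F test, two-sided, Benjamini-Hochberg over the 12889 genes that reached 1 CPM in 4 or more libraries, threshold 0.05). DESeq2 1.42.0 served as an alternative. The step was tested on simulated data with changes in genes picked at random, and its outcome is not reported here. The shifts of rod, lens and Ttr RNA between the genotypes were not modelled there. The depth sets a floor of 3 counts, or 0.970 to 1.26 CPM, for counting error only. Alternatives were DESeq2, other scalings and filters, an adjusted p of 0.01, the replicate block and each library left out. Scaling to RPE markers without Ttr and the alternatives for the neighbours of Ttc8 and for the 7-subunit sum were added after the data had been seen. Named were the 10 members, pathway genes and neighbours of Ttc8 past the threshold, defining markers and the 5 genes most like the 7-subunit sum. Other genes were named after their values were seen. The members and lists were chosen with earlier results of these data known. Promoters were read from RefSeq windows of GRCm38.p6.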

Additional observations from a re-analysis of the deposited data

Results flagged for a closer look

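Replicate 2 of Bbs8+/+ stood apart in the summed level of the 7 BBSome subunits without Ttc8, at 398 CPM where the other 3 libraries lay between 374 and 375 CPM. Its gap to the nearest library, as a fraction of the range, was 0.972, above Dixon's 95% critical value for 4 samples. It was the only 1 of 30 such groups to do so, and chance alone gives about 1 in 20. The range of the group is narrow, and replicate 2 lies further from the Bbs8-/- libraries than the others.

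Reads that mapped uniquely but fell on no gene, which none of the comparisons uses, made up 30.0% to 30.9% of the uniquely mapped reads in Bbs8-/- libraries, with a median of 30.4%, and 25.8% to 27.8% in Bbs8+/+ libraries. The genotypes did not overlap, and an exact permutation test, two-sided, gave p = 0.0286, the smallest that 4 libraries against 4 allow.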

How the results depend on the processing

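Bbs4 and Ttc8 kept their direction and their calls under every alternative run, Bbs4 with log2 fold changes of -0.80 to -0.38 and adjusted p of 1.10e-06 to 0.0201, and no member rose under any. Cct5, Cep290, Arl13b and Rfx2 passed the threshold in all of them too. With libraries scaled to the summed RPE markers 6 members and 14 other pathway genes fell, against 2 and 3, and Bbs7 (-0.90, adjusted p = 0.0336), Bbs9 (-0.64, adjusted p = 0.00996), Bbip1 (-0.59, adjusted p = 0.00532) and Lztfl1 (-0.70, adjusted p = 0.00297) gained a call. Bbs1 (-0.24) and Bbs2 (-0.025) turned below 0 there. Among the 12889 tested genes 261 rose and 2652 fell, against 704 and 877 with TMM (8.96% of calls higher, against 44.5%). This scaling lowers all genes by nearly the same amount, so the added falls are no result about the members or the pathway. Without Ttr the same scaling gave 1114 rises and 600 falls (65.0% higher), 2 pathway genes that rose (Rfx7, at 0.70, beside Rfx2) and Arl6 at 0.038. Of wild type, the 7-subunit sum was 65.4% with RPE marker scaling, 87.1% without Ttr and 85.5% by library size, against 80.5%. Scaling by library size alone gave 1005 and 657 (60.5% higher) and Arl6 at 0.012. At an adjusted p of 0.01, 394 genes rose and 571 fell, with the same number of members called. Left out 1 at a time, the libraries gave ranges of -0.0082 to 0.15 for Bbs1, the lower without replicate 2 of Bbs8-/-, 0.09 to 0.45 for Bbs2, -0.74 to -0.23 for Bbs5, -0.84 to -0.36 for Bbs7 (adjusted p of 0.0552 to 0.622), -0.46 to -0.16 for Bbs9, -3.49 to -3.06 for Ttc8 and -0.53 to -0.44 for Bbs4 (adjusted p of 0.0033 to 0.0102). The fit without replicate 1 of Bbs8+/+ gave Bbs7 at -0.84 with its lowest adjusted p of 0.0552, and Bbs2 at 0.09. With the replicate number as a block 650 genes rose and 827 fell and Bbs4 was at -0.49 (adjusted p = 0.0038). The deviations of same-numbered libraries correlated at -0.06 to 0.01, so the numbers do not pair the libraries, and the block changed no call of a member. Low counts limit Bbs5, at 8 to 27 counts a library, and the cargo receptors.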
